A study of Homo sapiens with 18 samples.

Results

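ANKRD1 and 9 other genes of the YAP/TEAD pathway (CCN1, CCN2, AMOTL1, AMOTL2, LATS2, AJUBA, AXL, TEAD1 and YAP1) were followed across the 18 arrays of a transfection experiment in HEK293, an established human embryonic kidney cell line. Members were the array rows whose gene symbols all lay in this list of names. All 10 were found, each as a single transcript cluster (the set of probes summarised for a gene), among 21214 clusters with a symbol and 33297 in all. ANKRD1 was chosen by its measured difference between RHOXF2 and control arrays at 48 h, and the others as genes of its pathway. Every value of the 10 genes in a comparison that holds the RHOXF2 arrays of 48 h is therefore given as a description, with no p-value. The control arrays of 48 h took part in that choice too, so tests of ANKRD1 that use them are not independent of it.

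Cells were transfected by lipofection with a plasmid for RHOXF1, a plasmid for RHOXF2 or a control vector, and harvested after 24 h or 48 h, which made 6 groups of 3 arrays. RHOXF1 and RHOXF2 are X-linked homeobox genes of the reproductive family. The control is labelled as an empty vector in one place, and a GFP vector is named beside the RHOX clones in another. Whether the RHOX plasmids also carry GFP is not stated, and neither is the share of cells that took up DNA. The arrays of a group are described as biological triplicates. Values are log2 expression values, so a difference of 1 is a doubling. They compare a gene between arrays, since probes of different genes differ in brightness. Bulk RNA was measured, so fewer cells expressing a gene and less of its RNA per cell cannot be told apart.

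YAP1 is a transcriptional coactivator that is held in the cytoplasm when the Hippo kinases, among them LATS1 and LATS2, phosphorylate it. In the nucleus it binds TEAD factors such as TEAD1, which recognise a short DNA core. CCN1, CCN2 and ANKRD1 are the targets most often used as a readout of that complex, while AMOTL2, LATS2, AJUBA and AXL are targets of which several also feed back on the pathway. ANKRD1 encodes a nuclear and sarcomeric ankyrin repeat protein, best known from heart and skeletal muscle.

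The promoters of ANKRD1 and CCN2 are shown because the 2 genes share the TEAD core but differed in their response. Both windows run 5′ to 3′ on the gene's strand, cover the 250 bases before the transcript start, and come from RefSeq on GRCh38.p14. Capitals mark the core CATTCC or its reverse complement GGAATG.
ANKRD1, chr10:90921088-90921337, minus strand: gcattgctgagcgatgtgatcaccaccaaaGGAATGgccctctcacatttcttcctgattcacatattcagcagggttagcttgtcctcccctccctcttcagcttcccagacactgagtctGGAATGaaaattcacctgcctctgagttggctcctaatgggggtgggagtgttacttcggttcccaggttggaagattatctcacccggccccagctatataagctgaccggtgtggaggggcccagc
CCN2, chr6:131951373-131951622, minus strand: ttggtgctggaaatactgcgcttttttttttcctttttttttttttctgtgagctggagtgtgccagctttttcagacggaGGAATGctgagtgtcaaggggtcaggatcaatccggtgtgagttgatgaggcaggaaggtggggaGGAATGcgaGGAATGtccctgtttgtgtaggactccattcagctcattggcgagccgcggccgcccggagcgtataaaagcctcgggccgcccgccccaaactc
ANKRD1 held 2 cores, at 220 to 215 and at 128 to 123 bases before the start. CCN2 held 3, at 169 to 164, 104 to 99 and 95 to 90 bases before it. The RefSeq promoter table matched 8 of the 10 genes, not CCN1 and TEAD1, and gave them 11 windows. The core was present in 1 window each of 6 genes: beside ANKRD1 and CCN2 these were AMOTL2 (69 to 64 bases before the start), AJUBA (59 to 54), AXL (212 to 207) and YAP1 (162 to 157). No core was found in the windows of AMOTL1 and LATS2. Searched the same way on both strands, 11.9% of 35116 promoter windows held the core. A match is a description of the letters only.

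The transfected genes were high where the labels place them. The RHOXF1 cluster read 12.13 to 12.32 in RHOXF1 arrays and 5.67 to 6.56 in control arrays, and the RHOXF2/RHOXF2B cluster read 12.78 to 12.96 in RHOXF2 arrays and 6.44 to 7.12 in controls. Another RHOXF2/RHOXF2B cluster held the same values, and both are counted in ranks and shares over all clusters. The RHOXF1 cluster also read 6.94 to 9.12 in the RHOXF2 arrays. At 48 h it read 7.75, 7.03 and 9.12 there in replicates 1 to 3, so the highest value was that of replicate 3. RHOXF2 replicate 3 at 48 h stood apart: on the first principal component it lay at -4.5, while all other 48 h arrays lay at 9.4 or above and all 24 h arrays at -8.7 or below. Its part in the results was not tested, and differences that rest on the RHOXF2 arrays of 48 h are also given without it where that moves them by more than 1.5 times or turns their sign. As a rough check of the cell line, limited by those differences in probe brightness, markers were placed among all clusters. The neurofilament genes NEFL and NEFM, which HEK293 cells express, lay at or above percentile 99.2 of all clusters with a symbol. The kidney lineage factor PAX2 lay between percentiles 34.6 and 40.4. Of the other genes listed for HEK293, KRT8 and KRT18 lay between 67.2 and 87.6 and VIM at or above 96.1. Over all arrays the 4 blood markers lay at or below percentile 29.7 and the 3 endothelial markers at or below 24.5. Of the 5 fibroblast markers DCN lay at or below 4.11 and COL1A1 between 53.3 and 59.1. Of the hepatocyte markers ALB lay at or below 9.41 and APOA1 between 38.4 and 46.3, a range that overlaps that of PAX2. All 24 h arrays carry array numbers 1 to 9 and all 48 h arrays 16 to 24, so time and array series cannot be told apart.

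ANKRD1 was highest in the RHOXF2 arrays of 48 h and lay between 5.41 and 5.78 in control and RHOXF1 arrays. Those values lay at percentiles 21 to 26.1 of all clusters with a symbol, so they were among the dimmer ones, as far as probe brightness allows that reading. In control arrays it read 5.54, 5.52 and 5.67 at 24 h and 5.42, 5.41 and 5.61 at 48 h. In RHOXF1 arrays it read 5.45, 5.71 and 5.78 at 24 h and 5.43, 5.72 and 5.57 at 48 h. In RHOXF2 arrays it read 5.68, 6.40 and 6.27 at 24 h and 7.90, 8.45 and 7.39 at 48 h. Of the 6 RHOXF2 arrays 5 lay above all 12 others, whose highest value was 5.78, and the exception was replicate 1 at 24 h.

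At 48 h the ANKRD1 difference between RHOXF2 and control was 2.43 ± 0.20 (SE, n = 3 against 3), which is 5.40-fold and ranks 3 from the top of 21214 clusters. Above it stood only the RHOXF2/RHOXF2B clusters of the transfected gene, with means of 12.92 in RHOXF2 and 6.62 in control arrays. Every SE given with a difference is the limma value, which pools a gene's spread over the groups. It is therefore not the spread of the compared arrays alone. For ANKRD1 at 48 h the SD was 0.53 in RHOXF2 arrays and 0.11 in control arrays. Without RHOXF2 replicate 3 the difference was 2.70 and without replicate 2 it was 2.16. Against the RHOXF1 arrays of 48 h it was 2.34 ± 0.20, or 5.06-fold, and against the RHOXF2 arrays of 24 h 1.79 ± 0.20, or 3.47-fold. In all of these the groups did not overlap. These 3 differences share the RHOXF2 arrays of 48 h by which the gene was chosen.

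At 24 h, where the means rest on arrays that the choice did not use, ANKRD1 was 0.54 ± 0.20 (SE, n = 3 against 3) above control, or 1.45-fold, with all 3 RHOXF2 arrays above the control arrays, as in 3.89% of clusters. Its SE and p are not free of the choice, since the pooled spread includes the RHOXF2 arrays of 48 h. The SD was 0.53 in those, 0.38 in RHOXF2 arrays of 24 h and 0.08 in their controls. The 24 h difference ranked 13 of 21214 but did not pass (limma, Benjamini-Hochberg adjusted p = 0.512). Over the alternatives it ran from 0.40 to 0.76, with adjusted p from 0.277 to 0.981. Against the RHOXF1 arrays of 24 h it was 0.47 ± 0.20 (limma adjusted p = 1). With RHOXF1 the difference from control was 0.07 ± 0.20 at 24 h (limma adjusted p = 0.988) and 0.09 ± 0.20 at 48 h (limma adjusted p = 0.956). The latter shares its 48 h control arrays with the choice of ANKRD1, so it is no independent test. Ordered by group mean, RHOXF2 at 48 h stood highest and RHOXF2 at 24 h second, and the gap below each exceeded the pooled SD within groups of 0.29. The other 4 groups lay closer to each other than that SD.

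**Figure D1:**
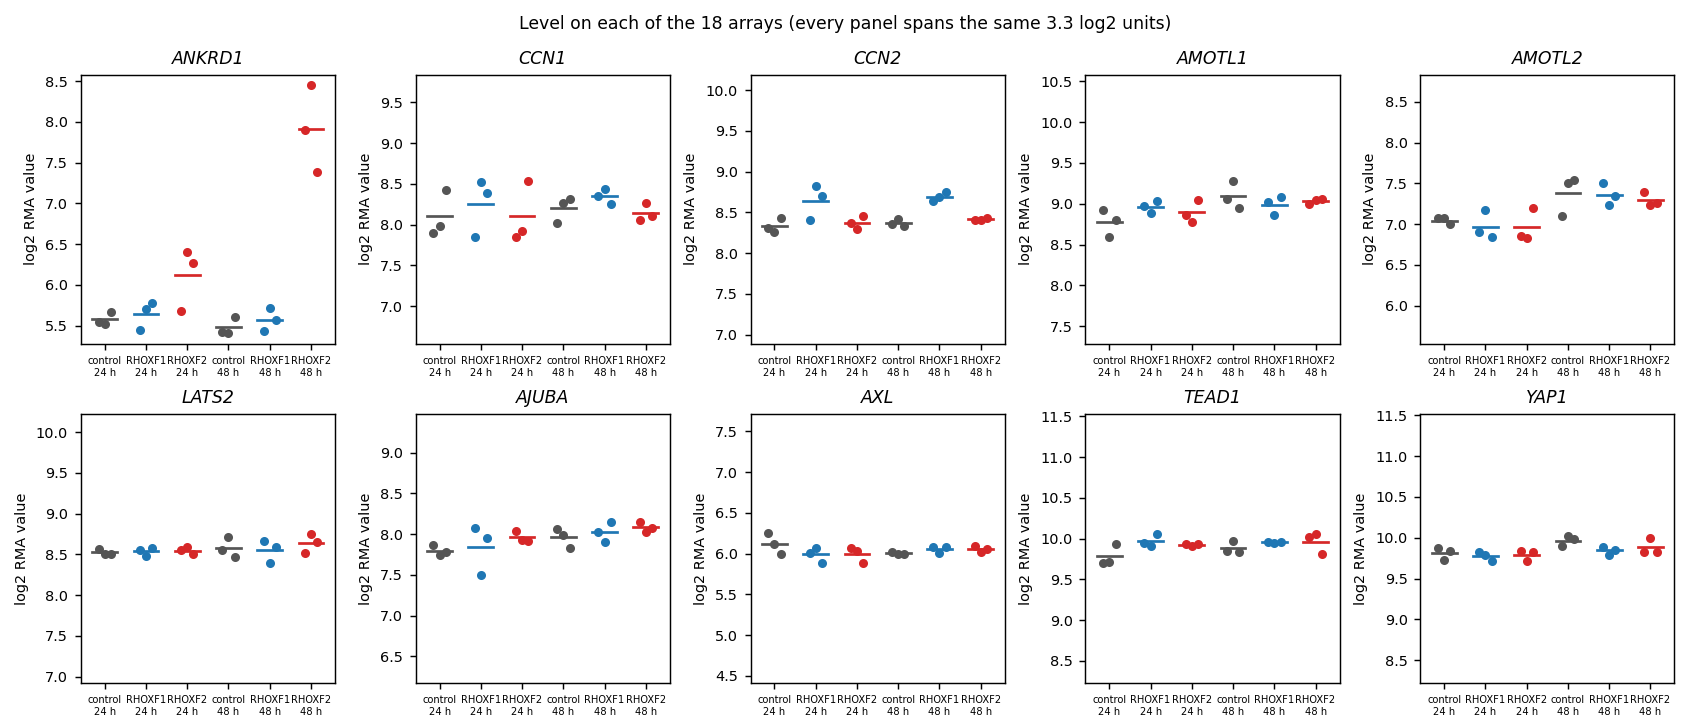
Log2 RMA value of the 10 genes on each of the 18 arrays; points are arrays, bars are group means, and every panel spans the same range of log2 units. ANKRD1 reaches 7.39 to 8.45 in the 48 h RHOXF2 arrays, and no other gene spans more than 0.42 between its highest and lowest group means.

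CCN1 and CCN2, secreted matrix proteins formerly called CYR61 and CTGF, did not follow ANKRD1 in the RHOXF2 arrays. At 48 h CCN2 read 8.36, 8.42 and 8.33 in control arrays and 8.41, 8.41 and 8.43 in RHOXF2 arrays, a difference of 0.05 ± 0.09 (SE). CCN1 read 8.02, 8.26 and 8.31 in control arrays and 8.05, 8.27 and 8.10 in RHOXF2 arrays, a difference of -0.06 ± 0.18 (SE). The groups overlapped for both genes. At 24 h the RHOXF2 difference was 0.03 for CCN2 (limma adjusted p = 0.966) and 0.00 for CCN1 (limma adjusted p = 0.998). CCN1 was the less precisely measured of the pair: its pooled SD of 0.26 lay at percentile 96.3 of all clusters, and its 6 group means spanned 0.25.

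CCN2 was highest in the RHOXF1 arrays. It read 8.40, 8.82 and 8.70 there at 24 h, against 8.31, 8.26 and 8.43 in control arrays, and the groups overlapped. At 48 h it read 8.64, 8.69 and 8.75, all above the control values given for 48 h, as in 7.17% of clusters. Of the 6 RHOXF1 arrays 5 lay above every one of the 12 other arrays. The difference from control was 0.30 ± 0.09 at 24 h (SE, n = 3 against 3, limma adjusted p = 0.961) and 0.32 ± 0.09 at 48 h (limma adjusted p = 0.489), and neither passed. The first of these ran from 0.21 without RHOXF1 replicate 2 at 24 h to 0.42 without RHOXF1 replicate 1 (limma adjusted p = 0.91 and 0.518). The CCN2 difference of RHOXF2 from RHOXF1 arrays was -0.27 ± 0.09 at 24 h (limma adjusted p = 1), from -0.39 to -0.18 over the alternatives, and -0.27 ± 0.09 at 48 h, where all 3 RHOXF2 arrays lay below the RHOXF1 arrays, as in 4.78% of clusters.

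AMOTL1 and AMOTL2 are angiomotin-like scaffold proteins that bind YAP1. AMOTL2 read 7.10, 7.51 and 7.54 in control arrays and 7.39, 7.23 and 7.26 in RHOXF2 arrays at 48 h, a difference of -0.09 ± 0.12 (SE), and the groups overlapped. AMOTL1 read 9.06, 9.28 and 8.95 in control and 9.00, 9.04 and 9.06 in RHOXF2 arrays, a difference of -0.06 ± 0.10. At 24 h the RHOXF2 difference was 0.12 for AMOTL1 (limma adjusted p = 0.831) and -0.08 for AMOTL2, and neither passed.

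LATS2, AJUBA, TEAD1 and YAP1 had group means that spanned 0.11 to 0.29. LATS2, the kinase that phosphorylates YAP1, read between 8.40 and 8.75 on all 18 arrays, and its group means spanned 0.11 against a pooled SD of 0.10. AJUBA, a LIM protein that restrains LATS kinases, read 8.06, 7.99 and 7.83 in control arrays and 8.15, 8.02 and 8.08 in RHOXF2 arrays at 48 h, which overlap, with a difference of 0.12 ± 0.11. At 24 h its RHOXF2 arrays all lay above the controls, as in 3.89% of clusters, by 0.17 ± 0.11 (limma adjusted p = 0.771). TEAD1 read 9.85, 9.97 and 9.84 in control and 10.02, 10.05 and 9.81 in RHOXF2 arrays at 48 h, a difference of 0.07 ± 0.08. YAP1 read 9.90, 10.02 and 9.98 against 9.83, 10.00 and 9.83, a difference of -0.08 ± 0.08. Both pairs of groups overlapped. With RHOXF1 at 48 h YAP1 lay below control on all 3 arrays, with a difference of -0.12 ± 0.08 (limma adjusted p = 0.764), as did 5.39% of clusters.

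AXL, a receptor tyrosine kinase, read between 5.88 and 6.25 on all arrays, and its mean level was also among the dimmer ones (percentile 29.3). At 48 h its RHOXF2 arrays, at 6.09, 6.02 and 6.06, all lay above the control arrays, at 6.02, 6.0 and 6.0, by 0.05 ± 0.08 (SE). At 24 h its RHOXF2 difference was -0.13 (limma adjusted p = 0.737). AXL and ANKRD1 were the 2 genes of the 10 whose 48 h groups did not overlap, as did not those of 11.8% of all clusters. That comparison chose ANKRD1, so nothing is read from the count.

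Counted together, the 9 genes other than ANKRD1 lay on both sides of control in the RHOXF2 arrays. At 48 h 5 were higher and 4 lower, with differences from -0.09 to 0.12 and a median of 0.05, while over all clusters the median was 0.01 and 53.9% were higher. ANKRD1 was the 1 of 10 among the 0.0943% of clusters past the threshold, which follows from how it was chosen, so nothing is read from that count. Without RHOXF2 replicate 3 the 9 ran from -0.07 to 0.15 with a median of 0.04. There TEAD1 was at 0.15, YAP1 at -0.05 and CCN1 at -0.04. At 24 h 6 were higher and 3 lower, with a median of 0.02 and a range of -0.13 to 0.17, beside a median of 0.00 over all clusters. No member passed with limma at 24 h (0.00943% of clusters did), and 1, ANKRD1, had an unadjusted p under 0.05, as had 1694 of the 21214 clusters. With RHOXF1 none of the 10 passed with limma at 24 h (0.00471% of clusters did) or at 48 h (0.00943%), and 2 and 1 members had an unadjusted p under 0.05, as had 1009 and 1531 clusters. Against RHOXF1 none passed with limma at 24 h (0.0141% of clusters), and 2 had an unadjusted p under 0.05, as had 361 clusters. The same comparison at 48 h holds the arrays that chose ANKRD1, so its place, as 1 of 10, among the 0.0519% of clusters past the threshold is no result. The RHOXF1 and RHOXF2 comparisons of a time share their control arrays. The shares past the threshold count the transfected genes too. They rest at 24 h on 2 clusters with RHOXF2, 1 with RHOXF1 and 3 between RHOXF2 and RHOXF1. The mean of the RHOXF2/RHOXF2B clusters was 12.83 with RHOXF2 at 24 h and 6.81 in controls. That of the RHOXF1 cluster was 12.25 with RHOXF1 and 6.335 in controls. These shares are therefore no rate for other genes.

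**Figure D2:**
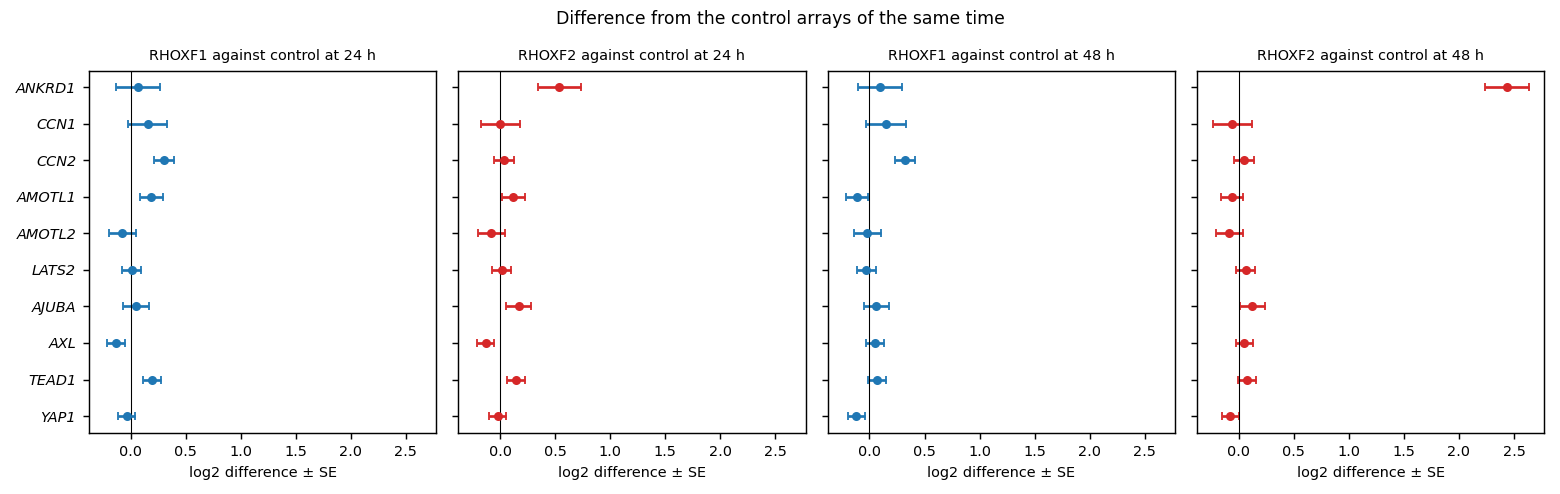
Log2 difference of each gene from the control arrays of the same time, with its limma standard error, for RHOXF1 and RHOXF2 at both times (3 arrays against 3). ANKRD1 stands at 0.54 and 2.43 in the RHOXF2 panels, and CCN2 at 0.30 and 0.32 in the RHOXF1 panels.

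A further 16 YAP/TEAD targets were read from a separate list, and none passed the test in the RHOXF2 arrays at 24 h, where 11 were higher and the median was 0.03. At 48 h 7 were higher and 9 lower than control, with a median of -0.02 and a range of -0.46 to 0.17, again as a description. The lowest was TGFB2, a TGF-beta ligand, which read 8.24, 8.61 and 8.26 in control and 8.03, 8.13 and 7.59 in RHOXF2 arrays. Its groups did not overlap, as those of 11.8% of clusters did not, and the difference was -0.46 ± 0.13 (SE), or -0.29 ± 0.12 without RHOXF2 replicate 3. GADD45A, a stress-induced growth arrest gene, was at -0.29 ± 0.15, and the kinase NUAK2, the highest, was at 0.17 ± 0.09, or 0.10 without replicate 3. Without that array 9 of the 16 were higher and 7 lower, with a median of 0.01. With RHOXF1 none of the 16 passed at either time, and the medians were 0.05 and 0.03. The smallest p-values at 24 h with RHOXF2 were those of NT5E, a cell surface nucleotidase gene, at -0.15 ± 0.09 (limma adjusted p = 0.739), and ASAP1 at 0.14 ± 0.08 (0.742). With RHOXF1 at 48 h they were those of ASAP1 at -0.14 ± 0.08 (limma adjusted p = 0.756) and F3, tissue factor, at 0.14 ± 0.09 (0.764).

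Upstream of YAP1, none of 19 Hippo kinases, scaffolds and regulators passed in the 3 tested comparisons with control. With RHOXF2 at 24 h their median was 0.03, and the smallest p-values belonged to the LIM protein gene WTIP at -0.12 ± 0.09 (limma adjusted p = 0.79) and the LATS activator gene MOB1A at 0.11 ± 0.09 (0.82). With RHOXF1 at 48 h they belonged to MOB1A at 0.21 ± 0.09 (limma adjusted p = 0.668) and RASSF1 at 0.16 ± 0.08 (0.689). Each had all 3 arrays above control, as had 7.17% of clusters. MOB1B, the paralogue of MOB1A, was at -0.33 ± 0.21 (SE) with RHOXF2 at 48 h, where its control arrays spread from 8.73 to 9.70. AMOT was at -0.21 ± 0.18 and WWC2 at -0.19 ± 0.10 in that comparison. Without RHOXF2 replicate 3 these were -0.18 for MOB1B, -0.12 for AMOT and -0.10 for WWC2.

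Among 8 other TEAD factors and cofactors none passed in those comparisons. VGLL3, a TEAD cofactor, read 7.41, 7.20 and 7.38 in RHOXF1 arrays at 48 h and 7.02, 6.74 and 7.16 in controls, 0.35 ± 0.11 higher without passing (limma adjusted p = 0.503). WWTR1, the YAP1 paralogue also called TAZ, was 0.23 ± 0.14 higher with RHOXF2 at 24 h (limma adjusted p = 0.736). VGLL4, a repressive cofactor, was at -0.12 ± 0.09 there (limma adjusted p = 0.788). TEAD2 was at 0.15 ± 0.08 with RHOXF1 at 48 h (limma adjusted p = 0.711) and at 0.17 ± 0.08 with RHOXF2, all 3 arrays above control in each. With RHOXF1 that held for 7.17% of clusters, and with RHOXF2 11.8% did not overlap in either direction. VGLL1 was at -0.11 ± 0.11 and TEAD4 at 0.10 ± 0.09 with RHOXF2 at 48 h, and both overlapped with control; without RHOXF2 replicate 3 TEAD4 was at 0.03.

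Relatives of single members gave no call in the 3 tested comparisons with control either. Of the 4 other CCN proteins, CCN5 read 7.22, 7.14 and 7.14 with RHOXF2 at 24 h and 7.48, 7.39 and 7.44 in controls, a difference of -0.27 ± 0.09 that did not pass (limma adjusted p = 0.462). At 48 h the groups overlapped, with 7.25, 7.30 and 7.42 against 7.41, 7.42 and 7.11. CCN4 was at -0.11 ± 0.11 with RHOXF2 at 24 h (limma adjusted p = 0.864) and at 0.12 ± 0.11 with RHOXF1 at 48 h (limma adjusted p = 0.862). CCN3 was at 0.19 ± 0.20 with RHOXF1 at 48 h (limma adjusted p = 0.877) and at 0.30 ± 0.20 with RHOXF2. At 48 h with RHOXF2, CCN6 was at -0.07 ± 0.10 and CCN4 at 0.02 ± 0.11. Without RHOXF2 replicate 3, CCN3 was at 0.19, CCN6 at -0.18, CCN4 at 0.00 and CCN5 at -0.04. Of the 4 AXL ligands and sister receptors, MERTK was at -0.23 ± 0.11 and the ligand PROS1 at -0.19 ± 0.10 with RHOXF2 at 48 h, while TYRO3 was at 0.14 ± 0.11. With RHOXF2 at 24 h MERTK was at 0.17 ± 0.11 (limma adjusted p = 0.749) and the ligand GAS6 at -0.10 ± 0.14 (0.911). With RHOXF1 at 48 h TYRO3 was at 0.20 ± 0.11 (limma adjusted p = 0.747) and MERTK at -0.13 ± 0.11 (0.833).

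ANKRD1 is also a striated muscle gene and a target of the SRF cofactors MRTF, so both kinds of gene were listed. Of 15 measured striated muscle genes (TNNT2 was not matched to a cluster) none passed in the tested comparisons with control. ACTC1, cardiac actin, read 5.94, 5.67 and 5.66 with RHOXF2 at 24 h and 5.29, 5.58 and 5.41 in controls, 0.33 ± 0.11 higher without passing (limma adjusted p = 0.462). At 48 h it read 5.38, 5.43 and 5.72 with RHOXF2 and 5.57, 5.56 and 5.28 in controls, which overlap; the difference was 0.04, or -0.07 without RHOXF2 replicate 3. MYH7, a cardiac myosin heavy chain, was at -0.20 ± 0.07 with RHOXF2 at 24 h (limma adjusted p = 0.508). ACTN2, the sarcomeric actinin, was at -0.33 ± 0.15 with RHOXF1 at 48 h (limma adjusted p = 0.668) and at -0.43 ± 0.15 with RHOXF2, and TNNI3, cardiac troponin I, at -0.17 ± 0.07 with RHOXF1 at 48 h (limma adjusted p = 0.668). The calcium store protein CASQ2 was at 0.22 ± 0.12 and the cardiac factor GATA4 at 0.21 ± 0.09 with RHOXF2 at 48 h, or 0.14 and 0.11 without replicate 3. Of the 15, 13 were lower than control with RHOXF2 at 24 h (median -0.06) and 8 were higher at 48 h (median 0.03, or 0.00 without replicate 3). With RHOXF1 at 24 h, against the same control arrays, 12 of the 15 were lower (median -0.09). Over all clusters 48.8% were higher with RHOXF2 at 24 h and 50.1% with RHOXF1.

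Of 12 measured MRTF/SRF targets and factors (MRTFA was not matched) none passed in the tested comparisons with control. MYL9, a myosin light chain, was at -0.32 ± 0.09 with RHOXF2 at 24 h (limma adjusted p = 0.394) and at -0.13 ± 0.09 with RHOXF1 at 48 h (0.776). CNN1, a smooth muscle calponin, was at -0.23 ± 0.08 at 24 h (limma adjusted p = 0.496) and at 0.20 ± 0.08 at 48 h. Its 3 RHOXF2 arrays all lay below the controls at 24 h and all above them at 48 h. At 48 h 11.8% of all clusters did not overlap, in either direction, and the share for 24 h is not given here. At 48 h with RHOXF2, the SRF cofactor MRTFB was at 0.20 ± 0.09 and SRF at 0.17 ± 0.09. ACTB, cytoplasmic actin, was at 0.10 ± 0.08 with RHOXF1 at 48 h (limma adjusted p = 0.839). The median of the 12 with RHOXF2 was 0.05 at 24 h and 0.11 at 48 h, or 0.04 at 48 h without replicate 3.

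**Figure D3:**
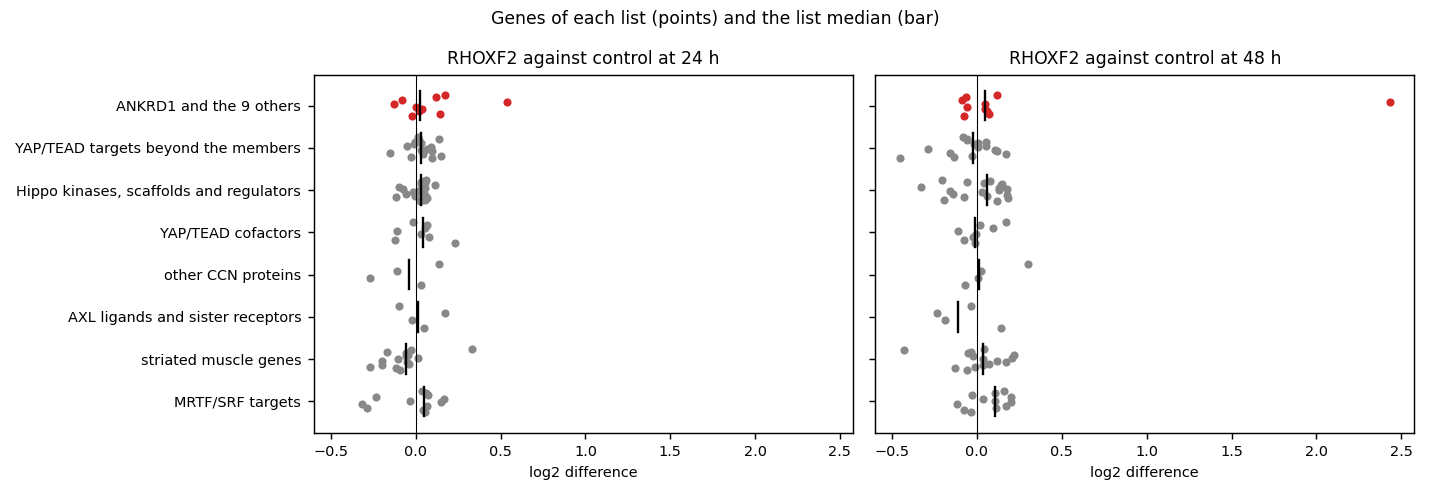
Log2 difference between RHOXF2 and control arrays at 24 h and at 48 h for the genes of 8 lists; points are genes, and the vertical bar is the list median. Apart from ANKRD1, the 48 h points of the lists lie between -0.46 and 0.30.

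The genes most like ANKRD1 lay outside the YAP/TEAD lists. Over the 18 arrays, HSPA6, a strictly stress-inducible HSP70 chaperone, had the highest correlation with ANKRD1 among 19450 clusters with a single symbol (Pearson r = 0.93, Spearman correlation 0.82). KRTAP19-5, a keratin-associated protein gene, came next (r = 0.87), followed by GCM1, a placental transcription factor (r = 0.86), RFPL4A (r = 0.79) and IL4R, an interleukin 4 receptor chain (r = 0.78). Without the 3 arrays of RHOXF2 at 48 h, HSPA6 still ranked first over 15 arrays (r = 0.88), GCM1 stood at 0.64, KRTAP19-5 at 0.43, IL4R at 0.10 and RFPL4A at -0.27. These are descriptions: the points share their arrays and group means, and over the 18 arrays they include the RHOXF2 arrays by which ANKRD1 was chosen.

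HSPA6 read 6.66, 6.65 and 6.48 in control and 6.89, 7.70 and 7.84 in RHOXF2 arrays at 24 h. At 48 h it read 6.56, 6.45 and 6.28 in control and 8.70, 9.12 and 7.43 in RHOXF2 arrays. As for ANKRD1, replicate 2 was the highest and replicate 3, the array that stood apart, the lowest of the RHOXF2 arrays at 48 h. Replicate 1 was the lowest at 24 h. With the group means removed, the 2 genes correlated at 0.87 over the 18 arrays. That too is a description and includes the RHOXF2 arrays of 48 h. The SD within groups was widest in the RHOXF2 arrays of 24 h and 48 h. It was 0.38 and 0.53 there for ANKRD1 and 0.51 and 0.88 for HSPA6. In the other groups it was at most 0.18 and 0.32. The HSPA6 difference was 0.88 ± 0.30 at 24 h (SE, limma adjusted p = 0.477) and 1.98 ± 0.30 at 48 h. The near-identical HSPA7 may share its probes. The heat shock element core TTCNNGAA, searched on both strands, was present once in the promoter window of HSPA6, as TTCGCGAA at 74 to 67 bases before the start. It was absent from the windows of the 8 matched genes, and 6.62% of all windows held it.

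Within the pathway, correlation with ANKRD1 over 18 arrays was highest for LATS2 (r = 0.36), TEAD1 (r = 0.34) and AJUBA (r = 0.32), and lowest for CCN2 (r = -0.16). By rank the order was another: the Spearman correlation was highest for CCN1 (0.24) and lowest for YAP1 (-0.41), with LATS2 at -0.04, AJUBA at 0.07, TEAD1 at 0.20 and CCN2 at 0.16. Over the 15 arrays without RHOXF2 at 48 h the values ran from -0.54 for YAP1 to 0.17 for TEAD1, CCN1 stood at 0.16 and LATS2 at -0.24. No order of the members by likeness held over these choices.

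**Figure D4:**
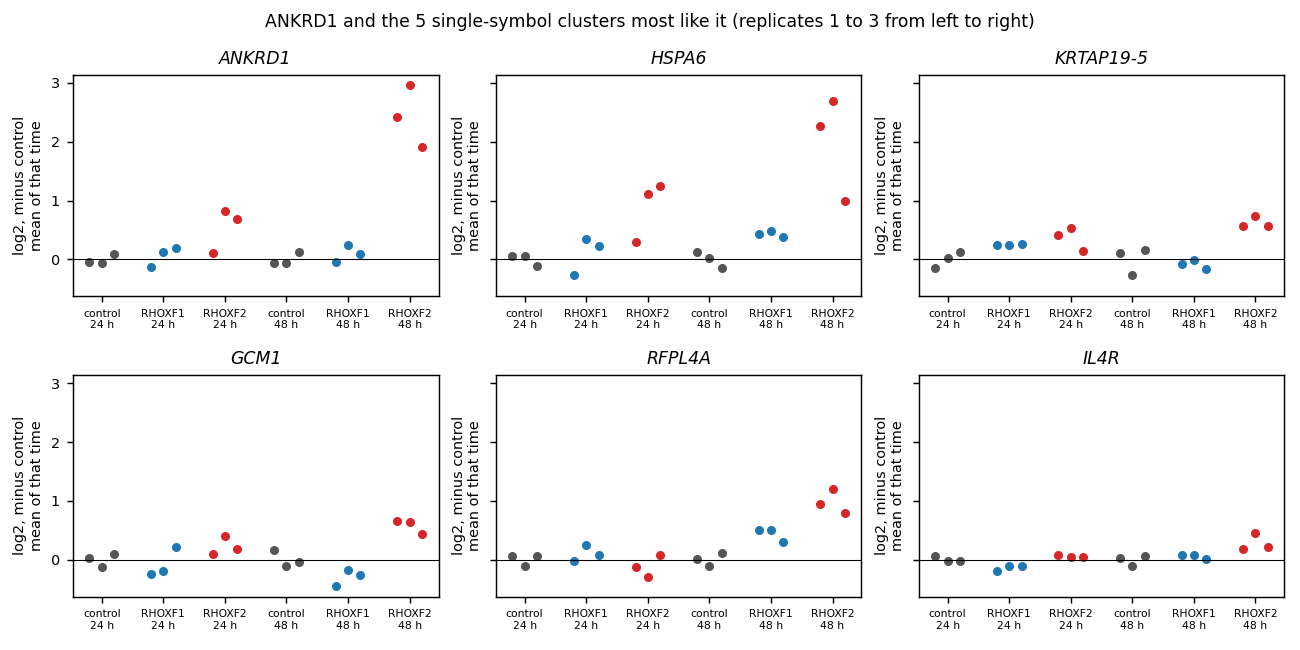
ANKRD1 and the 5 clusters most correlated with it over 18 arrays, as log2 value minus the control mean of the same time; points are arrays, with replicates 1 to 3 from left to right. HSPA6 shows the same order of RHOXF2 replicates at 48 h as ANKRD1, with replicate 2 highest and replicate 3, the array that stood apart, lowest.

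Between the times, AMOTL1 passed in control arrays, while AMOTL2 passed in neither tested comparison. In control arrays AMOTL1 read 8.92, 8.59 and 8.80 at 24 h and 9.06, 9.28 and 8.95 at 48 h. It rose by 0.32 ± 0.10 (SE, limma adjusted p = 0.0361), or 1.25-fold, and was the 1 of 10 members to pass, beside 17.8% of all clusters, so the share of members was no larger than that background. The call was lost without control replicate 2 at 24 h (limma adjusted p = 0.164), without replicate 3 at 24 h (0.0581) or without replicate 2 at 48 h (0.155). In RHOXF1 arrays the AMOTL1 difference was 0.02 (limma adjusted p = 0.936) and in RHOXF2 arrays 0.14, and the difference between the RHOXF1 effects at the 2 times was -0.30 ± 0.14 (limma adjusted p = 0.95).

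AMOTL2 read 7.07, 7.07 and 7.00 in control arrays at 24 h, all below the 48 h values given above. The groups did not overlap in that direction for 14.7% of clusters, and the same held for AMOTL1 and YAP1. The difference was 0.34 ± 0.12 (limma adjusted p = 0.0649), and it passed without control replicate 1 at 48 h (0.48, adjusted p = 0.0101). In RHOXF1 arrays it read 6.90, 7.17 and 6.84 at 24 h and 7.51, 7.23 and 7.34 at 48 h, a difference of 0.39 ± 0.12 (limma adjusted p = 0.0724) with all 3 arrays above, as in 15.1% of clusters. In RHOXF2 arrays the difference was 0.33 ± 0.12, with all 3 arrays above, as in 12% of clusters. No member passed with limma in the RHOXF1 arrays, where 4.42% of clusters did. There 1 member had an unadjusted p under 0.05, as had 4279 clusters, and in control arrays 2 had, as had 7113 clusters. In RHOXF2 arrays all 10 members, ANKRD1 among them, had a mean above that of 24 h, as a description, where 53.8% of clusters were higher. In control arrays and in RHOXF1 arrays 8 of the 10 were higher, beside 45% and 48.7% of clusters. ANKRD1, as 1 of 10, was among the 1.24% of clusters past the threshold there, which is no result since those arrays chose it.

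Several of the 16 further targets rose with time in control arrays: 5 passed, all higher, where 9.89% of clusters passed as higher and 7.89% as lower, and the median of the list was 0.18 against -0.03 for all clusters. TGFB2 read 7.50, 7.54 and 7.61 at 24 h and rose by 0.82 ± 0.13 (limma adjusted p = 0.000718). RBMS3, an RNA-binding protein gene, rose by 0.86 ± 0.16 (limma adjusted p = 0.00183), from 6.28, 6.03 and 5.91 to 6.61, 7.22 and 6.97. CCDC80, a matrix protein gene, rose by 0.66 ± 0.13 (limma adjusted p = 0.00232) and GADD45A by 0.70 ± 0.15 (limma adjusted p = 0.0049). ARHGEF17 rose by 0.44 ± 0.11 (limma adjusted p = 0.0111), a call lost without control replicate 2 at 48 h (0.0509).

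In RHOXF1 arrays 4 of the 16 rose (3.06% of clusters passed as higher and 1.35% as lower): RBMS3 by 0.76 ± 0.16 (limma adjusted p = 0.0142), TGFB2 by 0.57 ± 0.13 (0.0192), CCDC80 by 0.52 ± 0.13 (0.0262) and ARHGEF17 by 0.45 ± 0.11 (0.0285). None of the 4 calls held without RHOXF1 replicate 2 or 3 at 24 h, or without RHOXF1 replicate 1 or 3 at 48 h. Over all clusters the number of calls, 937, also fell in these leave-outs, to 162, 13, 164 and 95, so the losses are not particular to these genes. TGFB2 and ARHGEF17 also lost theirs without replicate 2 at 48 h, and CCDC80 and ARHGEF17 with all clusters tested (0.0591 and 0.0593). Among the relatives of AXL, MERTK rose in control arrays by 0.59 ± 0.11 (limma adjusted p = 0.00187) and PROS1 by 0.49 ± 0.10 (limma adjusted p = 0.00433). TYRO3 rose by 0.35 ± 0.11 (limma adjusted p = 0.037), and that call was lost without any 1 of 5 control arrays, all but replicate 1 at 48 h, with all clusters tested (0.0666) and with only the compared groups (0.092). In RHOXF1 arrays PROS1 rose by 0.45 ± 0.10 (limma adjusted p = 0.0229), a call lost without any 1 of 5 RHOXF1 arrays, all but replicate 1 at 24 h. AXL itself was not called.

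Of the Hippo regulators AMOT rose in control arrays by 0.73 ± 0.18 (limma adjusted p = 0.0123), a call lost without replicate 2 at 24 h (0.0559) or at 48 h (0.069). LATS1, the sister kinase of LATS2, read 9.78, 9.56 and 9.64 in RHOXF1 arrays at 24 h and 9.45, 9.32 and 9.41 at 48 h. It fell by 0.27 ± 0.07 (limma adjusted p = 0.0476), a call lost in 11 of 14 alternatives. These were the leave-outs of any 1 of the 6 RHOXF1 arrays (adjusted p from 0.0736 to 0.161), all clusters tested (0.069), both other normalizations (0.0667 in each), only the compared groups (0.0709) and the replicate block (0.0511). Of the muscle genes ACTN2 rose in control arrays by 0.54 ± 0.15 (limma adjusted p = 0.017), a call lost without replicate 1 at 24 h (0.0561) or replicate 2 (0.0774) or 3 (0.0757) at 48 h. CNN2, a calponin on the MRTF/SRF list, rose by 0.38 ± 0.11 (limma adjusted p = 0.0298), a call lost without replicate 1 (0.0859) or 2 (0.104) at 24 h or replicate 1 (0.082) or 3 (0.149) at 48 h. It was also lost with all clusters tested (0.0562), only the compared groups (0.128) and array weights (0.0714). In control arrays AMOT was 1 of 19 Hippo regulators, ACTN2 1 of 15 muscle genes and CNN2 1 of 12 on its list to pass. There 17.8% of all clusters passed. LATS1 was 1 of 19 in RHOXF1 arrays, beside 4.42% of clusters. None of these calls is a result about its list. Of the 15 muscle genes 10 were lower at 48 h in control arrays (median -0.14, against -0.03 over all clusters).

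**Figure D5:**
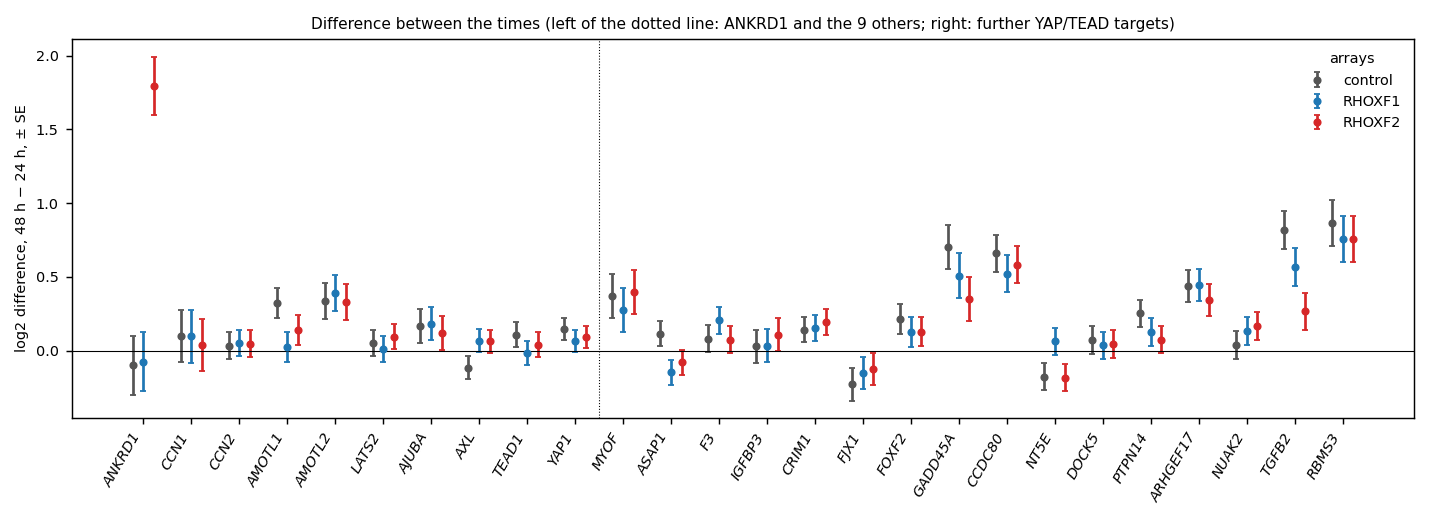
Log2 difference between 48 h and 24 h arrays, with its limma standard error, in control, RHOXF1 and RHOXF2 arrays for the 10 genes (left of the dotted line) and 16 further YAP/TEAD targets (right). ANKRD1 stands at 1.79 in RHOXF2 arrays and at -0.10 in controls, while TGFB2, RBMS3, CCDC80 and GADD45A reach 0.66 or more in control arrays.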

How the data were processed

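The values are log2 RMA expression values, made by the authors with Affymetrix Expression Console 3.1 and deposited as 1 table, per the labels and the submitters' processing notes. RMA subtracts background and equalises the arrays' distributions, so a shift of all genes would not be seen. The labels name a gene array and the design text an exon array; the genome build is not given in the sources used here. Array medians ran from 6.68 to 6.82. Symbols came from the supplied probe table, and 19460 clusters had 1 symbol, 1754 several and 12083 none.

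limma 3.58.1 in R 4.3.3 was fitted over all 18 arrays with 1 mean per group (12 residual degrees of freedom); two-sided p-values were Benjamini-Hochberg adjusted over 21214 clusters, with a threshold of 0.05. Fold is 2 to the power of the log2 difference. No array was left out and no dim cluster filtered, and the number of arrays limits the precision. From each list, genes that passed in a tested comparison were named, up to 2 with the smallest p for RHOXF2 at 24 h and RHOXF1 at 48 h, and up to 3 with the largest difference for RHOXF2 at 48 h, as were the 5 clusters most correlated with ANKRD1. The members and lists were chosen with earlier results of these data known. The fit was tested on simulated data. Deviations of same-numbered arrays from their group means correlated at 0.134 to 0.504 in the comparisons with control at 24 h, all over the mark of 0.1 set for pairing. Not all did so between RHOXF2 and RHOXF1 at 24 h (lowest 0.062) or at 48 h (2 of 9 pairs over 0.1). Arrays of different numbers were not compared, so whether replicate numbers pair the arrays is not settled. The fits given use no block. Alternatives changed the normalization, filter, model or arrays used.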

Additional observations from a re-analysis of the deposited data

How the results depend on the processing

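The 90 member results were recomputed under up to 14 alternatives each, 1233 values in all. Of these, 1216 kept their side of the threshold or stayed within their spread, 7 lost a call, 3 gained one, 7 moved and 0 reversed. The 79 changes of sign were all of differences that had not passed. ANKRD1 with RHOXF2 at 48 h ranged from 2.16 to 2.70. The number of members called in the RHOXF2 comparison with control at 48 h, with RHOXF1 at 48 h and between the times went from 1 to 0 when only clusters above the median level were tested, because that filter removes ANKRD1. Between the times in control arrays it went from 1 to 0 when all clusters were tested (AMOTL1 adjusted p = 0.0627), with quantile normalization repeated (0.0532), with cyclic loess (0.0529) and with only the compared groups (0.123), and ran from 0 to 2 when single arrays were left out. In RHOXF1 arrays it went from 0 to 1, AMOTL2, with only the compared groups (limma adjusted p = 0.0474) and with array weights (0.0201). The cause was not tested where none is named. With a replicate block, which treats same-numbered arrays as paired, no member was gained or lost, ANKRD1 with RHOXF2 at 24 h had a limma adjusted p = 0.39 and CCN2 with RHOXF1 at 24 h one of 0.81. Over all clusters the block gave 2 and 1 calls in the 24 h comparisons with control, as without it. It gave 5 in place of 2 with RHOXF1 at 48 h and 690 in place of 264 between the times in RHOXF2 arrays. Of the list genes that passed, LATS1 lost its call with it. Of 36 correlations with ANKRD1 recomputed, 17 moved and 14 changed sign. Values of list genes without RHOXF2 replicate 3 at 48 h, and list genes under the alternatives, were added after seeing the data. No member has several clusters, so the mean over clusters gave no value. With 3 arrays a group, small differences such as those of CCN1 cannot be told from 0.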
